A study of Danio rerio with 6 samples.

Results

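The mRNAs of the mitochondrial genome were measured in whole zebrafish embryos, wild-type ones and mutants of rbm24a, the gene of an RNA-binding protein. Members were the rows whose gene symbol starts with mt- in the deposited table of all genes. The rule found 13 of 31624 genes, and all 13 are the protein-coding genes of the mitochondrial genome. No rRNA or tRNA row carries that prefix. Another 24 rows have symbols that start with AC024175, and their lengths equal the lengths of the 22 tRNA and 2 rRNA genes that RefSeq lists on the mitochondrial chromosome. They are described separately and were not counted as members. All embryos were of the AB strain and were taken at 33 hours post fertilization. The 3 mutant libraries come from embryos in which TALENs, nucleases designed to cut a chosen site, had removed 8 bp of rbm24a. Since the labels disagree between libraries on the exon, none is named. The 3 wild-type libraries carry no listed mutation and served as the control. The labels do not say how many embryos went into a library or whether the mutants were sorted by phenotype.

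The mitochondrial genome of vertebrates is a small circle that encodes subunits of respiratory complexes I, III, IV and V, together with the rRNAs and tRNAs needed to translate them. The enzymes of the respiratory chain also contain many subunits encoded in the nucleus. Both strands of the circle are transcribed into long precursors that are cut, mostly at the tRNAs between the coding genes, into separate mRNAs, and these are then polyadenylated. Levels of the separate mRNAs therefore depend on their stability as well as on transcription.

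Total counts per library lay between 13242789 and 16043155 reads. Rbm24a itself had between 204 and 247 reads in the wild-type and between 288 and 514 reads in the mutant libraries, and a deletion of 8 bp leaves the gene countable, so this does not check the labels. Wild-type and mutant libraries parted on principal component 1 (60.4% of the variance). Component 2 (19.3%) set mutant replicate 2 apart, at -41.2 where mutant replicates 1 and 3 stood at 22.8 and 12.5. In mutant replicate 2 the 1650 longest genes lay 0.36 above the other mutants on the log2 scale in the median, where the 1654 shortest lay at 0.00. Other libraries shifted too. Against the rest of their group, the longest genes lay at -0.19, 0.19 and 0.01 in wild-type replicates 1 to 3. In mutant replicates 1 and 3 they lay at -0.22 and -0.12. These values by gene length are without TMM scaling, and the principal components are with it. The calls on members and on gene lists are given with and without mutant replicate 2, which component 2 set apart. Levels are in FPKM, reads scaled to gene length and to all counted reads, as the authors deposited them. The test was edgeR's quasi-likelihood test on the read counts with TMM scaling, which sets libraries to a common level by the bulk of genes, and Benjamini-Hochberg adjustment over the 16489 genes whose mean FPKM reached 0.5. A gene was called at an adjusted p under 0.05, and all 13 members passed the expression filter. Log2 changes are mutant minus wild-type.

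**Figure D1:**
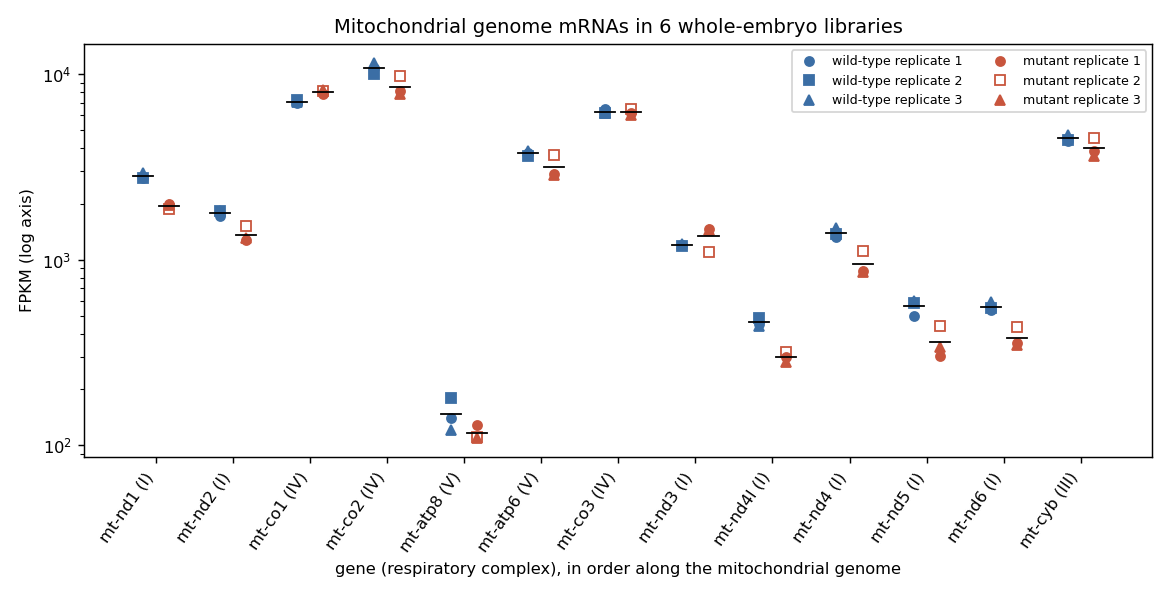
FPKM (log axis) of the 13 mRNAs of the mitochondrial genome in each library, in gene order along the mitochondrial genome, with the respiratory complex in parentheses and a line at each group mean. Mutant values of mt-nd1, mt-nd2, mt-nd4l, mt-nd4, mt-nd5, mt-nd6 and mt-co2 lie below all wild-type values, those of mt-co1 lie above, and open squares mark mutant replicate 2.

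These mRNAs are among the most abundant of the embryo. The 13 genes took 3.90%, 3.89% and 4.06% of the counted reads in wild-type replicates 1 to 3, and the mutant replicates gave 3.47%, 3.87% and 3.48%. The means were 3.95% ± 0.0940 and 3.61% ± 0.227 (SD, n = 3 each). On this scale the share was lower in every mutant library than in every wild-type library, but mutant replicate 2 was close to the wild-type range. TMM scaling divides the share by 1.05 for wild-type replicate 2, 0.921 for mutant replicate 1 and 1.08 for mutant replicate 2. With it the groups overlapped and mutant replicate 2 was the lowest. Per length, mt-co2, mt-co1 and mt-co3 ranked 1, 2 and 3 in mean FPKM among the genes tested, and mt-cyb ranked 8. Mt-atp8 was the lowest member, at rank 568, and in wild-type the mean FPKM of mt-co2 was 73.1-fold above it. On the FPKM scale the median coefficient of variation over the 13 genes was 4.14% in wild-type, against 12.0% in the mutants. This spread depends on the scaling and was not computed with TMM. With TMM scaling mutant replicates 1 to 3 came closer together for mt-nd2 (1386, 1400 and 1373). They moved further apart for mt-nd1 (2155, 1742 and 2064).

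Of the 13 members 5 fell and 0 rose, where 7.48% of all genes tested fell and 6.71% rose. The 5 that fell are mt-nd1, mt-nd4l, mt-nd4, mt-nd5 and mt-nd6, which encode subunits of the membrane arm of complex I, the NADH dehydrogenase at the entry of the chain. At an unadjusted p under 0.05 there were 6 lower and 0 higher. The share of all genes at that threshold was not computed, here or for the gene lists below. DESeq2 called 7 members lower, mt-nd2 and mt-co2 joining those named, and 0 higher, where it called 7.06% of all genes tested lower and 6.66% higher. The median log2 change was -0.29 over the 13 members and 0.00 over all genes tested. On the FPKM scale the groups did not overlap for 7 members with lower and 1 with higher mutant values, where 17.7% and 13.0% of all genes tested did so. With TMM scaling, which adds mt-atp6, these counts were 8 and 1, where 16.3% and 15.0% of all genes did so. The 13 members did not change alike, with mt-co1 higher in every mutant on both scales. In whole embryos, changes in cells rich in mitochondria, mitochondrial genomes per cell, RNA per genome and mRNA stability cannot be told apart. None of these was tested. The authors' deposited table of 743 changed genes, which all have at least a 2-fold change, holds 0 of the 13 members.

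Among the complex I genes, mt-nd5 (ENSDARG00000063921) encodes a large subunit of the proton-pumping arm. Its level was 498, 586 and 599.8 FPKM in wild-type replicates 1 to 3, and the mutant replicates were at 302, 439 and 338 FPKM. All mutants were below all wild-type libraries, and mutant replicate 2 was the nearest to them. The log2 change was -0.60 (SE 0.13, adjusted p = 0.00603), and the fitted level fell by 34.0%. Without mutant replicate 2 it was -0.69, and without wild-type replicate 3 the call was lost (adjusted p = 0.0507).

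Mt-nd4l (ENSDARG00000063916) and mt-nd4 (ENSDARG00000063917) are neighbours whose reading frames overlap, and in mammals they are translated from a shared mRNA. Mt-nd4l was at 451, 485 and 441 FPKM in wild-type and at 299, 319 and 281 FPKM in mutants. Mt-nd4 was at 1319, 1374 and 1484 FPKM in wild-type and at 867, 1109 and 855 FPKM in mutants. For both genes the groups were apart. The mean of mt-nd4l went from 459 ± 23.0 to 299.6 ± 19.1 FPKM (± SD, 3 libraries each), with a fitted log2 change of -0.56 (SE 0.10, adjusted p = 0.00141), and mt-nd4 changed by -0.52 (SE 0.13, adjusted p = 0.0145). Per length, the level of mt-nd4l was 0.342, 0.353 and 0.297 of that of mt-nd4 per wild-type library and 0.345, 0.288 and 0.328 per mutant library, so the ratio between these neighbours overlapped between the groups. The call on mt-nd4 was lost without wild-type replicate 1 (adjusted p = 0.0559), wild-type replicate 3 (0.10) or mutant replicate 3 (0.0774), and that on mt-nd4l was kept without any single library.

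Mt-nd6 (ENSDARG00000063922) is the only protein-coding gene transcribed from the other strand of the circle. It was at 536, 547 and 588 FPKM in wild-type and at 355, 434 and 347 FPKM in mutants, with no overlap. Its log2 change was -0.51 (SE 0.10, adjusted p = 0.00385), and the call was kept without any single library. Mt-nd6 lies beside mt-nd5 on the circle, and its level per length was 1.08, 0.933 and 0.981 of that of mt-nd5 in the wild-type and 1.18, 0.987 and 1.03 in the mutant libraries. No source used here says whether strand was used in counting, so reads of mt-nd6 and reads of precursors from the opposite strand cannot be told apart.

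Mt-nd1 (ENSDARG00000063895) is the protein-coding gene nearest to the rRNA genes. It was at 2753, 2761 and 2922 FPKM in wild-type and at 1984, 1887 and 1960.5 FPKM in mutants. On the FPKM scale the mutant values lay close together and far below the wild-type range, with mutant replicate 2 the lowest. With TMM scaling mutant replicates 1 to 3 were less close, at 2155, 1742 and 2064, and all stayed below the wild-type range. The log2 change was -0.48 (SE 0.14, adjusted p = 0.0341). The call was lost without wild-type replicate 1 (adjusted p = 0.114), wild-type replicate 2 (0.0853), wild-type replicate 3 (0.156) or mutant replicate 3 (0.0845). Without mutant replicate 2 it was -0.39 (adjusted p = 0.00302).

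Mt-nd2 (ENSDARG00000063899), the next protein-coding gene, was at 1717, 1820.2 and 1840.2 FPKM in wild-type and at 1276, 1516 and 1304 FPKM in mutants. The groups were apart, and the log2 change of -0.34 (SE 0.12, adjusted p = 0.0761) did not pass. It passed under 6 of 18 alternatives. Among these were edgeR's test without mutant replicate 2, at -0.35 (adjusted p = 0.00448), and DESeq2 on all libraries (adjusted p = 0.00221). Mt-nd3 (ENSDARG00000063914), the remaining subunit gene of complex I, went the other way in 2 of 3 mutants. It was at 1199, 1185 and 1215 FPKM in wild-type and at 1469.9, 1100.0 and 1453 FPKM in mutants, so that mutant replicates 1 and 3 were above the wild-type range and mutant replicate 2 was below it. The log2 change was 0.23 (SE 0.15, adjusted p = 0.383), with a 95% interval of -0.10 to 0.56, and without mutant replicate 2 mt-nd3 was higher, at 0.41 (adjusted p = 5.3e-04).

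For complex IV, mt-co1 (ENSDARG00000063905), mt-co2 (ENSDARG00000063908) and mt-co3 (ENSDARG00000063912) encode the catalytic core of cytochrome c oxidase, which passes electrons to oxygen. Mt-co1 was at 6959, 7227 and 7056 FPKM in wild-type and at 7791, 8134 and 8198 FPKM in mutants. Every mutant was above every wild-type library, and the log2 change of 0.24 (SE 0.16, adjusted p = 0.380) did not pass, with a 95% interval of -0.10 to 0.58. Without mutant replicate 2 mt-co1 was called higher, at 0.30 (adjusted p = 0.0328). Mt-co2 was at 10833, 9994 and 11504 FPKM in wild-type and at 8072, 9769 and 7822 FPKM in mutants. The mutants were all lower, with mutant replicate 2 just under the wild-type range, and the log2 change of -0.29 (SE 0.15, adjusted p = 0.249) did not pass. It passed by edgeR's test without mutant replicate 2, at -0.32 (adjusted p = 0.0283), and by DESeq2 on all libraries (adjusted p = 0.0468). Mt-co3 was at 6451, 6185 and 6203 FPKM in wild-type and at 6156, 6515 and 6009 FPKM in mutants, with overlapping groups, which is 0.04 (SE 0.14, adjusted p = 0.896) and a 95% interval of -0.27 to 0.35. Its sign turned to -0.01 when libraries were scaled to their total counts.

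The level of mt-co2 relative to mt-co1 differed between the groups. Per length, mt-co2 was at 1.56, 1.38 and 1.63 times the level of mt-co1 per wild-type library and at 1.04, 1.20 and 0.954 times per mutant library, with means of 1.52 ± 0.127 and 1.06 ± 0.126 (SD, n = 3 each). The level of mt-nd5 relative to mt-co1 was 0.0715, 0.0811 and 0.0850 in wild-type and 0.0387, 0.0540 and 0.0412 in mutants. Neither ratio overlapped between the groups. A ratio within a library does not depend on how libraries are scaled, and it shows unequal change without showing which gene changed. These ratios were chosen after the values were seen and were not tested.

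For complexes III and V no member passed the test. Mt-cyb (ENSDARG00000063924) encodes cytochrome b, the mitochondrially encoded subunit of complex III, and was at 4379, 4419 and 4720.2 FPKM in wild-type and at 3828, 4546 and 3630.1 FPKM in mutants. Mutant replicate 2 lay inside the wild-type range and the others below it. The log2 change of -0.12 (SE 0.14, adjusted p = 0.638) did not pass, with a 95% interval of -0.43 to 0.18. Mt-atp6 (ENSDARG00000063911) and mt-atp8 (ENSDARG00000063910) encode membrane subunits of the ATP synthase and overlap on the genome. Mt-atp6 was at 3749, 3622 and 3841 FPKM in wild-type and at 2905, 3678 and 2866 FPKM in mutants, with a log2 change of -0.20 (SE 0.13, adjusted p = 0.360) that did not pass. On the FPKM scale mutant replicate 2 again lay inside the wild-type range, with TMM scaling it lay below, and without it mt-atp6 was called lower, at -0.25 (adjusted p = 0.0469). Mt-atp8 was at 140.5, 181 and 121 FPKM in wild-type and at 128, 111 and 109 FPKM in mutants. These groups overlapped and the log2 change of -0.28 (SE 0.16, adjusted p = 0.275) did not pass. Mt-atp8 is 165 bp long and had between 254 and 410 reads a library, the fewest of the members. No source used here says how reads that span it and the overlapping mt-atp6 were counted, so its level is uncertain.

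**Figure D2:**
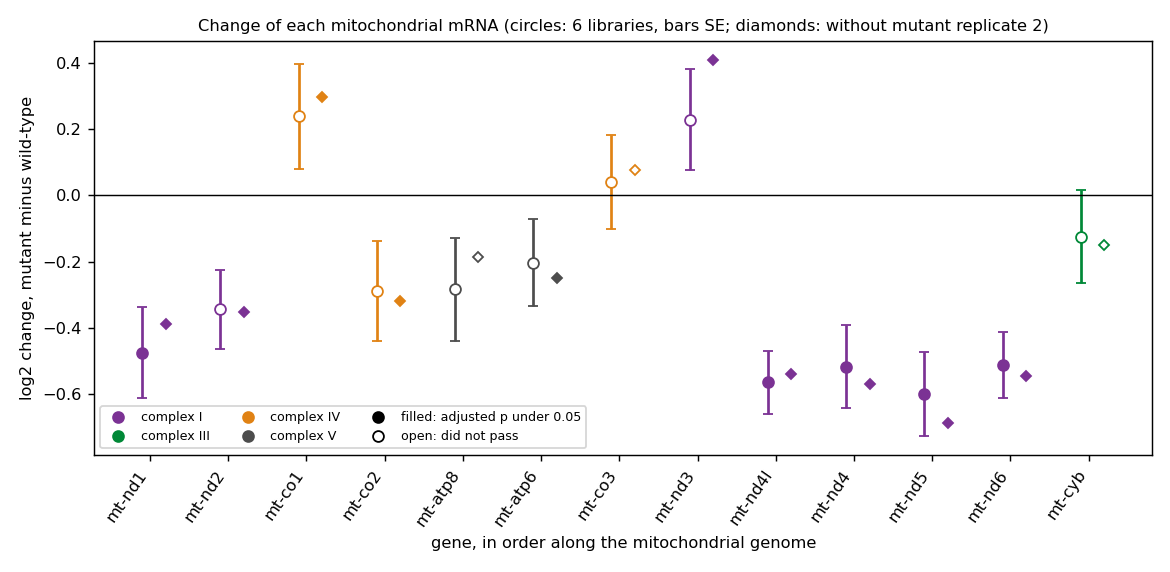
Log2 change of each mitochondrial mRNA (mutant minus wild-type) in gene order, with circles and SE bars for all 6 libraries and diamonds for the fit without mutant replicate 2. Filled symbols passed an adjusted p under 0.05 in edgeR's quasi-likelihood test, 5 of 13 circles and 10 of 13 diamonds, and the colors give the respiratory complex.

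Without mutant replicate 2, 8 members were lower and 2 higher, where 14.8% of all genes tested were lower and 14.5% higher in that fit. The 8 were mt-nd1, mt-nd2, mt-nd4l, mt-nd4, mt-nd5, mt-nd6, mt-co2 and mt-atp6, and the 2 were mt-co1 and mt-nd3. On the FPKM scale mutant replicate 2 was the highest mutant for 9 members and the lowest for 2. With TMM scaling these counts were 7 and 6, since its TMM factor was 1.08 against 0.921 and 0.950 for the other mutants. With TMM scaling its difference from the other mutants ran from -0.62 for mt-nd3 to 0.25 for mt-nd5. With the trend with transcript length removed from each library, 6 members were lower by edgeR's test, mt-nd2 (adjusted p = 0.0483) joining those named, and 0 higher. In that fit 8.08% of all genes tested were lower and 7.70% higher.

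In gene order along the circle, taken from RefSeq's annotation of the assembly GRCz12tu, mt-nd4l, mt-nd4, mt-nd5 and mt-nd6 are protein-coding genes 9 to 12 and stand next to each other. Their log2 changes lay between -0.60 and -0.51. Mt-nd3, at position 8, was at 0.23, and mt-cyb, at position 13, at -0.12. At the other end mt-nd1 and mt-nd2, at positions 1 and 2, were at -0.48 and -0.34, and mt-co1, at position 3, at 0.24. Over the 13 genes the log2 change had a Pearson r of -0.07 and a Spearman rho of -0.07 with gene length, of -0.22 and -0.27 with gene order, and of 0.48 and 0.55 with the log2 wild-type FPKM. These are descriptions across genes that share their libraries and, in part, their precursors.

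**Figure D3:**
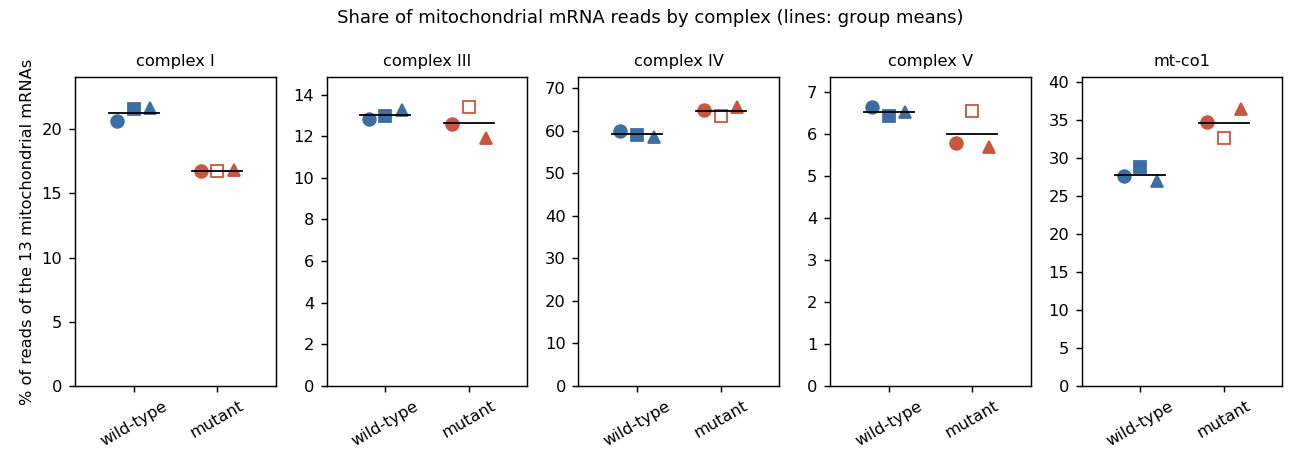
Share of the reads of the 13 mitochondrial mRNAs that came from each respiratory complex, and from mt-co1 alone, in percent, by library (blue wild-type, red mutant, circles, squares and triangles for replicates 1, 2 and 3, lines for group means). Complex I sits between 20.6% and 21.6% in wild-type and between 16.7% and 16.8% in mutants, and complex IV between 58.6% and 59.9% against 63.3% and 65.6%.

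The make-up of the mitochondrial mRNA pool differed between the groups. Complex I mRNAs gave 20.6%, 21.6% and 21.6% of the reads of the 13 genes in wild-type replicates 1 to 3, and the mutant replicates gave 16.7%, 16.7% and 16.8%. In this sum the mutants, replicate 2 included, lay closer together (SD 0.0410) than the wild-type libraries (SD 0.566). For single genes mutant replicate 2 differed in both directions. It gave 4.76% for mt-nd1 against 5.58% and 5.49% in mutant replicates 1 and 3, and 2.07% for mt-nd5 against 1.58% and 1.77%. Complex IV mRNAs gave 59.9%, 59.0% and 58.6% in wild-type and 64.9%, 63.3% and 65.6% in mutants. Of these, mt-co1 alone gave 27.7%, 28.8% and 27.0% against 34.8%, 32.6% and 36.5%, and mt-co2 gave 19.2%, 17.7% and 19.6% against 16.1%, 17.5% and 15.5%. The shares of complex III and complex V overlapped between the groups, with complex V at 6.64%, 6.44% and 6.52% in wild-type and 5.79%, 6.55% and 5.68% in mutants. Of all counted reads, by contrast, complex IV took 2.34% ± 0.0396 in wild-type and 2.33% ± 0.106 in mutants (SD, n = 3 each). Complex I took 0.841% ± 0.0369 and 0.604% ± 0.0369 of them. Summed shares over members were not tested. With libraries scaled to the summed reads of the 13 genes, edgeR's test called the same number of members, 5 lower and 0 higher, with log2 changes of -0.52 for mt-nd5 (adjusted p = 0.0141), -0.49 for mt-nd4l (adjusted p = 0.00373) and 0.32 for mt-co1 (adjusted p = 0.118). In that fit 5.51% of all genes tested were lower and 9.52% higher.

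Nearly all reads of the rows with AC024175 symbols lay in AC024175.4 and AC024175.17. These had between 8761 and 14386 and between 2753 and 3802 reads a library, where the member mt-nd3 had between 5369 and 8181. The longest, AC024175.4 (1683 bp, the length of the mitochondrial rRNA gene mt-rnr2 in RefSeq), was at 441, 528 and 500.3 FPKM in wild-type and at 432, 374 and 533 FPKM in mutants. AC024175.17 (952 bp, the length of mt-rnr1) was at 254, 291 and 249 FPKM in wild-type and at 205, 221 and 232 FPKM in mutants. On the FPKM scale the groups overlapped for the former, and the mutants were lower for the latter. With TMM scaling the groups were no longer apart for AC024175.17. Their log2 changes were -0.07 (SE 0.16, adjusted p = 0.843) and -0.21 (SE 0.11, adjusted p = 0.222), and neither passed by edgeR's test. The 22 short rows, of 68 to 77 bp, are shorter than the 100 bp reads. They had 12 reads in all over the 6 libraries, too few to compare the groups. The labels call the libraries mRNA libraries, and levels of rRNA and tRNA in such libraries depend on how RNA was selected.

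**Figure D4:**
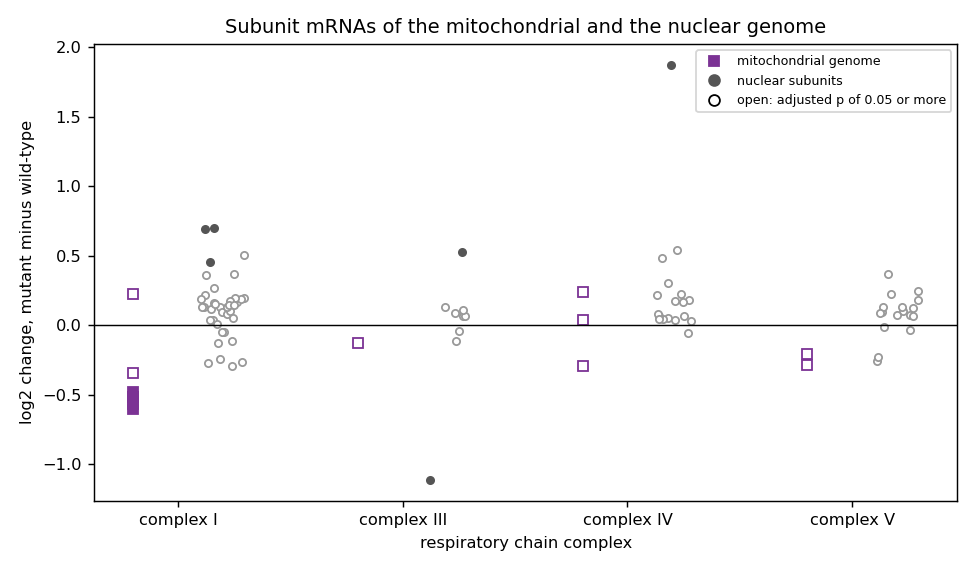
Log2 change (mutant minus wild-type) of the mitochondrially encoded subunit mRNAs (squares) and of the nuclear subunit mRNAs (circles, spread sideways for display) of respiratory complexes I, III, IV and V, filled where edgeR's adjusted p was under 0.05. For complex I, 5 of 7 mitochondrial mRNAs were lower, and of 40 nuclear ones (ndufa4 and ndufa4l included) 3 were higher and 0 lower.

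The partner subunits encoded in the nucleus were described from lists of genes by complex. The complex I list goes by gene name and holds ndufa4 and ndufa4l, whose product is now placed in complex IV. Of 40 tested nuclear complex I subunits 0 fell and 3 rose by edgeR's test (2 lower and 6 higher at an unadjusted p under 0.05, and 3 called by DESeq2), where 7.48% of all genes tested fell and 6.71% rose, so the share that rose was near that of all genes. The list had a median log2 change of 0.13. Ndufa10 went up from 108 ± 5.61 to 169 ± 3.99 FPKM (± SD, 3 libraries each), or on the log2 scale by 0.70 (SE 0.11, adjusted p = 7.54e-04). Ndufb7 changed by 0.69 (SE 0.12, adjusted p = 0.00130) and ndufb10 by 0.45 (SE 0.12, adjusted p = 0.0205), and all 3 encode accessory subunits. Without mutant replicate 2, 23 genes of the nuclear complex I list were higher, ndufa4 (0.57) and ndufa4l (0.32) included, and 0 lower. There 6 mitochondrial complex I mRNAs were lower and mt-nd3 higher. In that fit 14.8% of all genes were lower and 14.5% higher, the median of the nuclear complex I list was 0.25 and that of all genes was -0.01. The difference between the mitochondrial and the nuclear subunit genes was not tested. Of 15 complex I assembly factors ndufaf5 (0.45) and ndufaf6 (0.64) rose and ndufaf2 (-0.58) fell, with a median of 0.09. These 3 calls became 1 without wild-type replicate 1 or mutant replicate 1 and 0 without wild-type replicate 2, wild-type replicate 3 or mutant replicate 3, and without mutant replicate 2 the list had 1 lower and 4 higher and a median of 0.15.

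Of 18 nuclear complex IV subunits cox4i1l rose, with a log2 change of 1.87 (SE 0.32, adjusted p = 0.00161) from a low level of 1.28 ± 0.50 FPKM (SD, n = 3), and 0 fell. Of 9 nuclear complex III subunits uqcrfs1, the Rieske iron-sulfur protein gene, rose (0.53) and UQCR10 fell (-1.11). Of 17 nuclear ATP synthase genes 0 were called, with 8 higher and 0 lower without mutant replicate 2. At an unadjusted p under 0.05 the count of ATP synthase genes was 0 lower and 1 higher, and DESeq2 called 1. Of 4 complex II genes, all of whose subunits are nuclear, sdhb rose (0.58). Beside the counts of these 4 complexes, 7.48% of all genes tested fell and 6.71% rose by edgeR's test. Median log2 changes were 0.13, 0.07, 0.10 and 0.06 for complexes IV, III, V and II, against 0.00 over all genes tested. With mutant replicate 2 left out they were 0.23, 0.19, 0.20 and 0.15, against -0.01 over all genes. In that fit complex IV had 6 higher and 0 lower, complex III 2 higher and 1 lower, and complex II 1 higher and 0 lower, where 14.5% of all genes were higher and 14.8% lower.

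Of 23 tested genes that copy and transcribe the mitochondrial genome 2 fell and 1 rose, shares near those of all genes tested (7.48% and 6.71%). Without wild-type replicate 2, wild-type replicate 3, mutant replicate 1 or mutant replicate 3 the 3 calls became 1, and without wild-type replicate 1 they became 2. Leaving out mutant replicate 2 gave 2 lower and 3 higher, and the median went from -0.08 to 0.00. Rrm2b, a ribonucleotide reductase subunit that in humans supplies precursors for mitochondrial DNA, was at 48.1, 48.1 and 48.0 FPKM in wild-type and at 20.6, 25.3 and 19.4 FPKM in mutants, and it had a log2 change of -1.10 (SE 0.10, adjusted p = 1.15e-05). Polg, the mitochondrial DNA polymerase gene, had a log2 change of -0.38 (SE 0.12, adjusted p = 0.0430), and ssbp1, the mitochondrial single-stranded DNA binding protein gene, rose by 0.58 (SE 0.14, adjusted p = 0.0145). The values of the transcription genes themselves, which did not pass, were -0.10 (SE 0.13) for polrmt, the mitochondrial RNA polymerase gene, -0.05 (SE 0.10) for tfam, which packages and activates the genome, and -0.06 (SE 0.14) for tfb2m, an initiation factor gene.

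Of 39 tested genes for processing, stability and use of mitochondrial RNA, 1 fell and 1 rose, where 7.48% of all genes tested fell and 6.71% rose. Taco1, which in humans encodes a translational activator of the COX1 mRNA, was at 5.64, 5.93 and 7.12 FPKM in wild-type and at 1.18, 2.06 and 1.46 FPKM in mutants. The groups were far apart, and the log2 change was -1.95 (SE 0.23, adjusted p = 8.48e-05). The mt-co1 mRNA itself had a log2 change of 0.24 and did not pass. Fastkd2 encodes an RNA-binding protein of mitochondria and went up from 7.26 ± 0.111 to 10.7 ± 0.356 FPKM (± SD, 3 libraries each), or on the log2 scale by 0.62 (SE 0.12, adjusted p = 0.00463). Lrpprc and slirp, whose products bind and stabilize mitochondrial mRNAs in mammals, had log2 changes of 0.08 (SE 0.11) and 0.07 (SE 0.14) and did not pass. Without mutant replicate 2, 7 genes of this list were higher and 2 lower, where 14.5% and 14.8% of all genes were, and the median went from 0.06 to 0.15.

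Genes of import, the matrix and the inner and outer membranes were listed for their relation to mitochondrial mass. Only their mRNA levels were read, and mitochondrial mass itself was not measured. Of 29 tested, phb2b (-0.46), timm44 (-0.44) and tomm70a (-0.40) fell and slc25a3a (1.82) rose, beside 7.48% and 6.71% of all genes tested. Slc25a3a stayed at a low level, with a mean FPKM of 0.32 (SD 0.02) for the controls and 1.11 (SD 0.39) for the mutants. The 4 calls became 1 without wild-type replicate 1 and 2 without wild-type replicate 2, wild-type replicate 3, mutant replicate 1 or mutant replicate 3. The median was 0.10. Leaving out mutant replicate 2 gave 3 lower and 13 higher, where 14.8% and 14.5% of all genes were, and a median of 0.22. Cs, the citrate synthase gene, had a log2 change of -0.05 (SE 0.10). Of 21 mitochondrial stress genes hspd1, a chaperonin, rose (0.46) and the copy of clpxa with the identifier ENSDARG00000029063 (-0.79), a protease subunit gene, and fundc1 (-0.74), a receptor for removal of mitochondria, fell, with a median of 0.17. The clpxa copy with the identifier ENSDARG00000086455 was at 0.20 (adjusted p = 0.596 by edgeR's test) and was not called. The stress list had 2 lower and 5 higher and a median of 0.03 without mutant replicate 2, and without any other single library its 3 calls became 2. Of 13 regulators of mitochondrial biogenesis 0 were called, with a median of -0.03 and, without mutant replicate 2, 2 lower and a median of -0.13. At an unadjusted p under 0.05 the count of regulators was 3 lower and 0 higher, and DESeq2 called 0.

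Markers of tissues also differed between the groups. Of 6 tested markers each, 2 of skeletal muscle rose and 0 fell, 0 of heart rose and 1 fell, 3 of blood rose and 1 fell, 1 of epidermis rose and 2 fell and 0 of lens rose and 6 fell, and of 5 of neurons 0 rose and 1 fell, where 6.71% of all genes tested rose and 7.48% fell. When mutant replicate 2 was left out there were 5 of muscle higher, 2 of heart lower, 2 of neurons lower, and 2 of epidermis higher and 2 lower, while blood and lens kept their counts, where 14.5% of all genes were higher and 14.8% lower. Summed muscle markers were at 5075 to 6065 FPKM in wild-type and at 6781 to 7215 FPKM in mutants, and summed heart markers at 134 to 156 against 121 to 145 FPKM. Summed blood markers were at 5692 to 6026 against 6961 to 8340.5 FPKM, summed neuron markers at 325 to 359.6 against 259 to 335 FPKM, and summed epidermis markers at 4939 to 5465 against 5058 to 5543 FPKM. Lens markers summed to 524 to 669 FPKM in wild-type and to 301 to 342 FPKM in mutants. None of these markers was without reads, and their part in the changes of the mitochondrial mRNAs was not tested.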

How the data were processed

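RNA-seq libraries of 3 wild-type and 3 rbm24a mutant samples of whole zebrafish embryos were compared. Per the labels' protocols, RNA was extracted with Trizol, and mRNA libraries from a TruSeq RNA kit were sequenced as 100 bp paired ends. The submitters' processing notes list the build GRCz11 and the tools HISAT2 2.0.1 and HTSeq 0.6.1, beside DESeq2, cutadapt and bcl2fastq 2.17.1.14, with no role or order. No source used here says if strand was used in counting or where reads of several places or of overlapping genes went, so mt-nd6, mt-atp8, mt-atp6, mt-nd4l, mt-nd4 and any gene with nuclear copies are uncertain to that extent.

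The authors deposited whole-number read counts and FPKM values for 31624 genes. Every one of the 189744 FPKM values equals the count divided by gene length and by the library's total count within 0.005. The authors also deposited log2 fold changes and adjusted p-values for the genes they called, used here only to count members.

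Counts were tested with edgeR 4.0.16 in R 4.3.3 (quasi-likelihood test, TMM scaling, two-sided, Benjamini-Hochberg adjustment over the 16489 genes whose mean FPKM reached 0.5, threshold 0.05). Intervals of log2 changes are 95% intervals of that fit. The script was tested on simulated counts. The alternatives were other scalings, DESeq2 1.42.0, limma 3.58.1 on log2(FPKM + 1) and log2(FPKM + 0.1), other expression filters, a stricter threshold, removal of a length trend, a replicate block, and each library left out. Total counts of 13242789 to 16043155 set the precision, and all replicates differed by more than sampling noise. The labels call the samples of a group independent without naming separate clutches, so p-values measure the spread between these samples, which may be technical.

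The members and the gene lists were chosen with earlier results of these data known. All 13 members are named. Of each nuclear list the called genes are named, at most the 4 with the largest log2 change, and polrmt, tfam, tfb2m, lrpprc, slirp and cs, which were not called, were added for their roles after their values were seen. Of 305 listed symbols 284 were found, 26 of them through a table of gene names, and 1 row was left out because its symbol belongs to another gene. No sequence is shown, since no genome sequence was used here.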

Additional observations from a re-analysis of the deposited data

How the results depend on the processing

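The calls on mt-nd4l and mt-nd6 were kept under every alternative run, the threshold of 0.01 included. Members called lower numbered 5 in the reported fit, 3 with limma on log2(FPKM + 0.1), 3 at an adjusted p under 0.01, and between 2 and 8 with a library left out (2 without wild-type replicate 3, 3 when wild-type replicate 1 or mutant replicate 3 was dropped, 8 without mutant replicate 2). Under the other alternatives they numbered 5 to 7. The share of all genes tested that was called lower also moved. It was 7.48% in the reported fit and 5.14% with limma on log2(FPKM + 0.1). Without wild-type replicate 3, wild-type replicate 1 or mutant replicate 3 it was 4.42%, 4.49% or 4.65%, and without mutant replicate 2 it was 14.8%. With limma on log2(FPKM + 0.1) the calls on mt-nd4 (adjusted p = 0.0577) and mt-nd5 (adjusted p = 0.0710) were lost. Members called higher ranged from 0 to 2 with a library left out, reaching 2 without mutant replicate 2, and numbered 0 under every other alternative. Over all genes 2341 were called, 1431 with limma on log2(FPKM + 0.1), 1431 at a mean of at least 5 FPKM, 1219 at an adjusted p under 0.01, and between 1369 and 4828 with a library left out. The log2 change of mt-co3, 0.04 and not called, was -0.012 with total-count scaling, -0.013 with limma on log2(FPKM + 1) and -0.013 with limma on log2(FPKM + 0.1). The cause was not tested, though the higher filter tests fewer genes and the fits that leave out a library hold fewer samples by construction. Scaling to the summed mitochondrial reads moved the median of all genes by 0.08 and the share of higher calls from 47.3% to 63.3%. No source used here says that the replicate numbers shared by the groups pair the samples. Deviations of same-numbered libraries correlated at 0.19, 0.32 and 0.05. Mutant replicates 1 and 2 correlated best with their own number and mutant replicate 3 did not, so a pairing was neither shown nor excluded. With a replicate block 3388 genes were called in all, and 6 members were lower and 0 higher. In that fit 11.0% of all genes tested were lower and 9.55% higher. The SE of single members lay between 0.10 and 0.16 on the log2 scale, which limits what these 6 libraries can resolve.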

Other observations

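Between neighbouring genes the levels per length were unequal. For the overlapping pair mt-atp8 and mt-atp6, no source used here says how shared reads were counted, so their ratio is uncertain. Mt-atp8 was at 0.0375, 0.050 and 0.0314 of the FPKM of mt-atp6 in wild-type replicates 1 to 3 and at 0.0441, 0.0301 and 0.0381 in mutant replicates 1 to 3, with overlapping groups. The level of mt-co3, which adjoins mt-atp6 with no tRNA gene between them, was 1.72, 1.71 and 1.61 times that of mt-atp6 in wild-type and 2.12, 1.77 and 2.10 times in mutants. All mutants were above all wild-type libraries, with mutant replicate 2 the nearest. The level of mt-nd3 was 0.186, 0.192 and 0.196 of that of mt-co3 in wild-type and 0.239, 0.169 and 0.242 in mutants, with mutant replicate 2 below the wild-type range and the others above it. These ratios were chosen after the values were seen and were not tested.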
